A study of Mus musculus with 4 samples.

Results

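Cohesin and condensin are ring-shaped protein complexes that hold and fold chromosomes, and the transcripts of 10 of their subunits were compared between haploid and diploid mouse embryonic stem cells (ESCs). The 10 genes were chosen by name: Smc1a, Smc3, Rad21, Stag1 and Stag2 for cohesin, and Smc2, Smc4, Ncapd2, Ncaph and Ncapg for condensin. All 10 were among the 17962 features (13040 with a gene symbol) that passed the filter on dim probes, and all 10 were well above background on each of the 4 arrays. Both groups were female parthenogenetic ESCs, which derive from an unfertilised egg and carry maternal chromosomes only. One group was haploid (2 samples, line 1 and line 2) and the other diploid (2 samples, also a line 1 and a line 2), and every RNA (0.2 ug of total RNA labelled with Cy3) had a 1-colour Agilent array of its own. The sources used here do not give mouse strain, passage, growth medium, feeder cells or the share of cells that were still haploid at harvest. The series is titled for the passage from G2 into mitosis in haploid ESCs, the phase in which sister chromatids held by cohesin are condensed and then separated.

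Each complex is built on a pair of SMC proteins, long coiled-coil ATPases whose heads are closed by another subunit, the kleisin. In cohesin the SMC pair is SMC1A and SMC3, the kleisin is RAD21, and STAG1 or STAG2 binds it as an alternative accessory subunit. Cohesin keeps sister chromatids together from replication to anaphase and extrudes chromatin loops in interphase, and the protease separase opens it by cutting RAD21. Condensin compacts mitotic chromosomes. SMC2 and SMC4 are shared by its forms I and II, while NCAPH is the kleisin and NCAPD2 and NCAPG are the HEAT-repeat subunits of condensin I.

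The 4 arrays had 53.6% to 65.0% of probes well above background and a 75th percentile of signal of 526 to 907 intensity units, and diploid replicate 2 was the brightest on both measures. No spot was saturated. Values are given as log2 of the processed signal minus that array's 75th percentile, so 0 is the 75th percentile of an array and a level of 1 probe is not comparable with that of another. All 8 embryonic stem cell markers examined, among them Pou5f1, Sox2 and Nanog, were well above background on every array. Of 12 fibroblast markers, 10 were well above background on every array, Pdgfrb was so on 1 haploid array only, and Pdgfra on none. Their summed signal was 13.2 and 10.3 times the array's 75th percentile in haploid cells and 7.89 and 5.80 times in diploid cells, so it was higher on both haploid arrays. Of the 10 fibroblast markers tested, 7 lay above 0 and 3 below it (Col3a1 at -0.39, Dcn at -0.38 and Lum at -0.29), with a median difference of 0.80. By limma, 5 had an unadjusted p under 0.05 (11.7% of all features), while none was called (0.111% of all features). The part of fibroblast RNA in the values that follow was not tested, and in such bulk RNA fewer cells of a type and less RNA per cell cannot be told apart.

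No subunit of either complex passed the test between haploid and diploid cells. With limma (two-sided, n = 2 per group, Benjamini-Hochberg adjustment over all 17962 features), the adjusted p of the 10 genes lay between 0.391 and 0.986, and 1 of them, Smc1a, had an unadjusted p under 0.05. Over all features 0.111% were called (20 features, 15 or 0.0835% higher and 5 or 0.0278% lower in haploid cells). An unadjusted p under 0.05 was found for 11.7% of all features. The differences, haploid minus diploid on the log2 scale, ran from -0.34 for Smc2 to 0.48 for Smc1a, with standard errors (SE) of 0.17 to 0.20. Of the 10 subunits, 7 lay below 0, against 46.8% of all features, and the median was -0.09 for the subunits and 0.02 for all features. Both haploid arrays lay below both diploid arrays for 5 subunits (20.9% of all features) and above them for 1 (26.0% of all features).

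**Figure D1:**
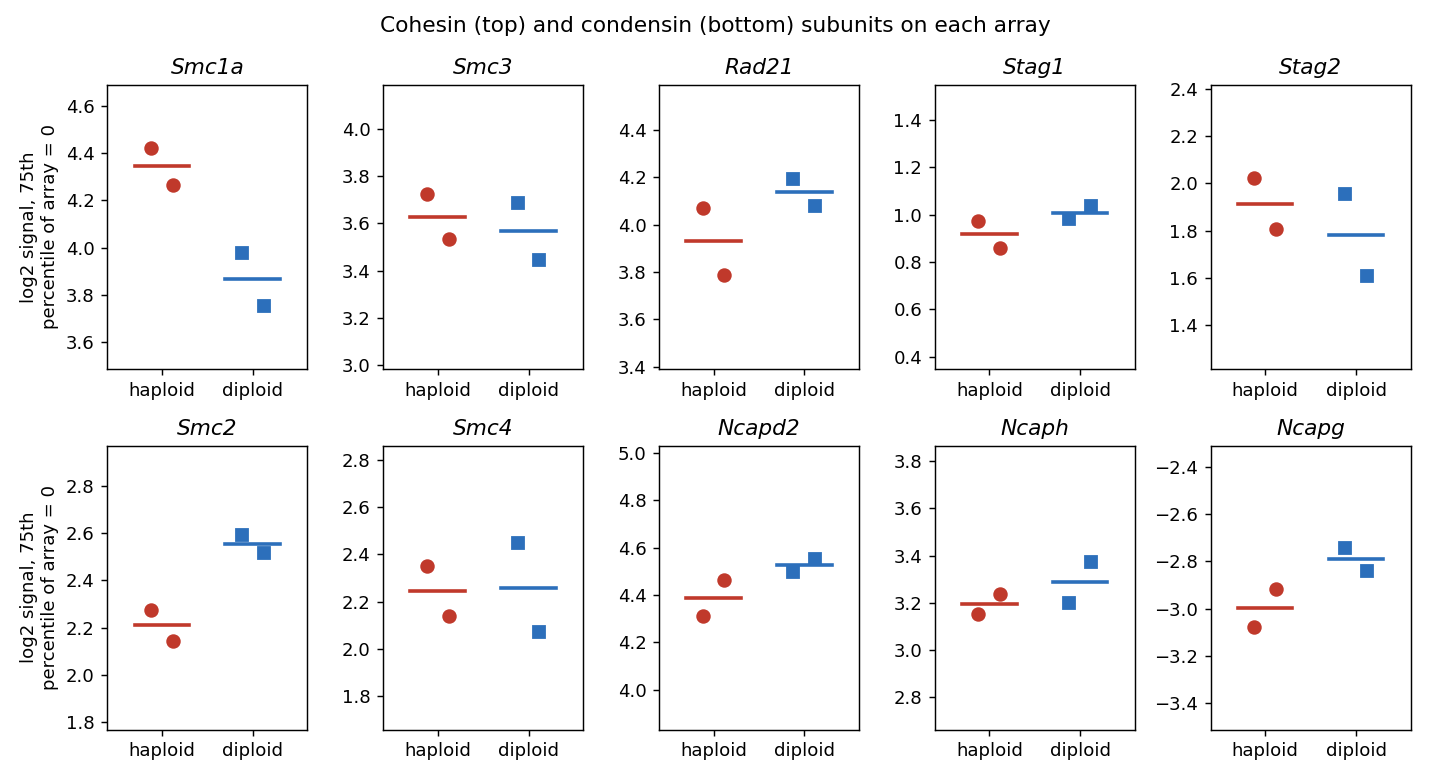
Log2 signal of each subunit on each array (75th percentile of the array = 0), with haploid arrays as circles on the left, diploid arrays as squares on the right and group means as lines; every panel spans the same height. Smc1a lies at 4.42 and 4.27 in haploid cells and 3.98 and 3.75 in diploid cells, while Smc2 lies at 2.27 and 2.15 in haploid cells and 2.59 and 2.52 in diploid cells.

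Among cohesin subunits, the largest difference was that of the X-linked gene Smc1a, which encodes the SMC1A ATPase (transcript NM_019710). Its log2 signal was 4.42 and 4.27 on the haploid arrays, against 3.98 and 3.75 on the diploid arrays. The groups did not overlap, and the gap between them was wider than the distance between the arrays of either group. The difference of 0.48 ± 0.18 (SE, n = 2 per group), or 1.39-fold, had a limma unadjusted p of 0.0369 and an adjusted p of 0.391. Its 95% interval ran from 0.04 to 0.92. Smc1a was above 0 in each of the 15 other settings tried. It ran from 0.36 with quantile normalization to 0.83 with normexp background correction on all spots. In the latter setting the background mean estimated for diploid replicate 2 was far from the others (-812 against 2.46 to 9.59 intensity units). Several settings, such as other probe filters or another prior, could not move the difference of a bright gene with 1 probe. Leaving out an array could not change its sign either, since the groups did not overlap.

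The partner of SMC1A in the ring is encoded by Smc3, on chromosome 19 (NM_007790). Smc3 had log2 signals of 3.72 and 3.53 in haploid cells and 3.68 and 3.45 in diploid cells, so the groups overlapped. The difference was 0.06 ± 0.18 (limma adjusted p = 0.907), with a 95% interval from -0.39 to 0.51, and 6 of 15 other settings put it below 0. The kleisin gene Rad21, on chromosome 15 (NM_009009), had 4.07 and 3.79 in haploid cells and 4.19 and 4.08 in diploid cells. Here the higher haploid value lay just under the lower diploid value, and the difference of -0.21 ± 0.19 (adjusted p = 0.668, 95% interval -0.66 to 0.24) was smaller than the distance of 0.28 between the haploid arrays. With normexp on all spots Rad21 was at 0.16.

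The STAG paralogues lay on either side of 0, each within its error. Stag2, X-linked like Smc1a (NM_001077712), had log2 signals of 2.02 and 1.81 in haploid cells and 1.95 and 1.61 in diploid cells, a difference of 0.13 ± 0.20 (limma adjusted p = 0.810). The diploid arrays were 0.34 apart, the groups overlapped, and without diploid replicate 2 the difference was -0.041. Stag1, on chromosome 9 (NM_009282), had 0.97 and 0.86 in haploid cells and 0.98 and 1.04 in diploid cells on the brighter of its 2 probes, a difference of -0.09 ± 0.17 (adjusted p = 0.842), and the groups were apart by 0.0093 only. On its other probe the values were 0.94 and 0.67 in haploid cells and 1.07 and 0.83 in diploid cells, with a difference of -0.14. Stag1 was the only subunit measured by more than 1 probe, and its probes had the same sign.

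Both X-linked subunits lay above 0. The X-linked genes of the partner lists described below, Kif4 (-0.22) and Hdac8 (-0.06), lay below 0. Over the 498 X-linked features tested the median difference was 0.11, with 64.7% above 0, and over the 12540 autosomal features it was 0.01, with 51.8% above 0. The part of this chromosome-wide difference in the values of Smc1a and Stag2 was not tested.

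The condensin subunits all lay below 0, and none passed the test. Smc2 on chromosome 4, which encodes an ATPase of condensin I and II (NM_008017), had the lowest value of the 10. Its log2 signal was 2.27 and 2.15 in haploid cells, against 2.59 and 2.52 in diploid cells. The groups were apart by 0.24, while the arrays of the haploid pair were 0.13 from each other and those of the diploid pair 0.077. The difference was -0.34 ± 0.17 (limma unadjusted p = 0.0859, adjusted p = 0.488), or 1.27-fold lower, with a 95% interval from -0.75 to 0.07. It was below 0 in each of the 15 other settings, reaching -0.075 with normexp on all spots. As with Smc1a, several of these settings could not change its sign. The gene for its partner, Smc4 on chromosome 3 (NM_133786), had 2.35 and 2.14 in haploid cells and 2.45 and 2.07 in diploid cells, and the haploid values lay between the diploid ones. Its difference was -0.01 ± 0.20 (adjusted p = 0.986), with a 95% interval from -0.51 to 0.48, and it was above 0 without haploid replicate 2 (0.094) or diploid replicate 1 (0.18).

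The non-SMC subunits of condensin I lay below 0 by less than Smc2, with 95% intervals that included 0. Ncapd2 on chromosome 6 (NM_146171), for a HEAT-repeat subunit, had log2 signals of 4.31 and 4.46 in haploid cells and 4.50 and 4.55 in diploid cells, a difference of -0.14 ± 0.17 (limma adjusted p = 0.760). Both haploid arrays lay below both diploid arrays, by 0.035 at the nearest. The kleisin gene Ncaph on chromosome 2 (NM_144818) had 3.15 and 3.24 in haploid cells and 3.20 and 3.37 in diploid cells, which overlapped, and differed by -0.09 ± 0.17 (adjusted p = 0.848). Ncapg on chromosome 5 (NM_019438), for the other HEAT-repeat subunit, was read by a dim probe in class 3 of 10 brightness classes (10 brightest), with -3.08 and -2.92 in haploid cells and -2.74 and -2.84 in diploid cells. Its groups did not overlap, and the difference was -0.21 ± 0.17 (adjusted p = 0.645, 95% interval -0.62 to 0.21). With normexp on all spots Ncapd2 was at 0.22, Ncaph at 0.25 and Ncapg at -0.67. With the spots above the 99th percentile of local background left out of the fit of that correction, though still corrected by it, Ncapg was at 0.023.

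As lists, cohesin had 2 of 5 subunits below 0 and a median of 0.06, and condensin had 5 of 5 below 0 and a median of -0.14. Over all features, 46.8% lay below 0 and the median was 0.02. The cohesin median took the other sign under several settings, and both medians were above 0 with normexp on all spots (0.32 for cohesin and 0.17 for condensin).

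Promoter sequences are shown for the subunits with the highest and the lowest difference, Smc1a and Smc2, and for the other subunits with a promoter window whose haploid arrays lay below the diploid ones, Stag1, Ncapd2 and Ncapg. RefSeq promoter windows (assembly GRCm38.p6, 250 bases before to 50 after the start of a gene, 300 bases in all) were matched by symbol for 7 of the 10 subunits. Each is written 5′ to 3′ on the strand of the gene. Capitals mark matches on either strand to 3 motifs known from promoters of cell cycle genes: the cell cycle homology region CHR (TTTGAA), the CCAAT box (CCAAT) and E2F-type sites. The E2F-type letters were TTCCCGC as the first form searched, TTCGCGC as the next, then also the form TTGGCGC and in the end the form TTGCCGC. No match overlapped one of another motif.
Smc1a, chrX:152016178-152016477, plus strand: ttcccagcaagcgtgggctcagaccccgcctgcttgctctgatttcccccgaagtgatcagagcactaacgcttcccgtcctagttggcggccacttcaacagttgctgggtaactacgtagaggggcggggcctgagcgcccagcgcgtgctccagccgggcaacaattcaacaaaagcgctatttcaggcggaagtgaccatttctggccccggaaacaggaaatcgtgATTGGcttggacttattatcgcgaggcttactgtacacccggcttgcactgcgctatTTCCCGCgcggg
Smc2, chr4:52438971-52439270, plus strand: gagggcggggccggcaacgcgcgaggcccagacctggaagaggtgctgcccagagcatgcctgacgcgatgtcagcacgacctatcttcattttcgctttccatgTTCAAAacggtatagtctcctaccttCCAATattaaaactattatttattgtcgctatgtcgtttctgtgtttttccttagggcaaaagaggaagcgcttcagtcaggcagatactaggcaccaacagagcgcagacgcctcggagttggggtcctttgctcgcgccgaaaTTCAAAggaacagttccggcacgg
Stag1, chr9:100643198-100643497, plus strand: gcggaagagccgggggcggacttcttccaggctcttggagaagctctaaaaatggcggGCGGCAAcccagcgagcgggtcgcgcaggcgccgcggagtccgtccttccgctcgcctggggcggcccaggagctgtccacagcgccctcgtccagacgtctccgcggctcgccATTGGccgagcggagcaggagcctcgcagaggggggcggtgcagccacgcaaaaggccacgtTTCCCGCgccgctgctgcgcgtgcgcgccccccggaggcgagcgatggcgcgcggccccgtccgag
Ncapd2, chr6:125191537-125191836, minus strand: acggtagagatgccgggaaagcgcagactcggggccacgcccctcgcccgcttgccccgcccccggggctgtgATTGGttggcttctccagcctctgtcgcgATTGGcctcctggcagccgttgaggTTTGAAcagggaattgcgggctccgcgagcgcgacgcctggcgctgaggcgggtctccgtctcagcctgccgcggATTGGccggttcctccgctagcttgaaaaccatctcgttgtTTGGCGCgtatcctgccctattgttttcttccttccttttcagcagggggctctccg
Ncapg, chr5:45669675-45669974, plus strand: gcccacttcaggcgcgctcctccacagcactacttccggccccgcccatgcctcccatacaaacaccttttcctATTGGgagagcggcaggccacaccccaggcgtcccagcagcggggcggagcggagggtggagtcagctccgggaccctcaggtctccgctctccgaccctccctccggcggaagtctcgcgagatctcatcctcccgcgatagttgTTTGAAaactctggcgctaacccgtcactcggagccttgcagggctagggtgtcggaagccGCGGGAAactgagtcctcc

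The Ncapd2 and Ncapg windows each held all 3 motifs, with the CHR ending 117 bases before the start in Ncapd2 and 24 bases before it in Ncapg. The Smc2 window held 2 CHR matches, 1 ending 139 bases before the start and 1 lying after it, and 1 CCAAT box. The Smc1a window, without a CHR match, held 1 CCAAT box and 1 E2F-type match. The Stag1 window, also without a CHR match, held 1 CCAAT box and 2 E2F-type matches. Of the windows not shown, that of Ncaph held an E2F-type match and that of Smc3 held no match. The E2F-type matches of Smc1a, Ncapg and Ncaph lay after the start of the gene. In all, 3 of the 7 windows had a CHR match, 5 a CCAAT box and 5 an E2F-type match, against 17.9%, 37.4% and 9.57% of the 32851 windows of the table. These matches describe letters in a window, not binding.

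Within an array, the ratio of subunits of 1 complex does not depend on a scaling factor for the array. The 6 pairs were formed after the values had been seen, so the ratios are descriptions and were not tested, and 2 arrays against 2 cannot give an exact permutation p below 0.333. The size of a ratio mixes the brightness of 2 probes, so only its change between arrays can be read. The log2 ratio of Smc1a over Smc3 was 0.70 and 0.73 on the haploid arrays and 0.30 and 0.31 on the diploid arrays. The haploid arrays were 0.032 apart and the diploid arrays 0.011, while the group means were 0.42 apart, or 1.34-fold, and with any 1 array left out the difference was 0.40 to 0.43. In each group, replicate 1 was the higher for both genes. The distance between arrays was 0.16 for Smc1a and 0.19 for Smc3 in haploid cells, and 0.23 and 0.24 in diploid cells. Of the 6 pairs, this one had the smallest SD within groups (0.017, against 0.069 to 0.21 for the others). The groups did not overlap in Smc1a and overlapped in Smc3, and neither gene passed the test.

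**Figure D2:**
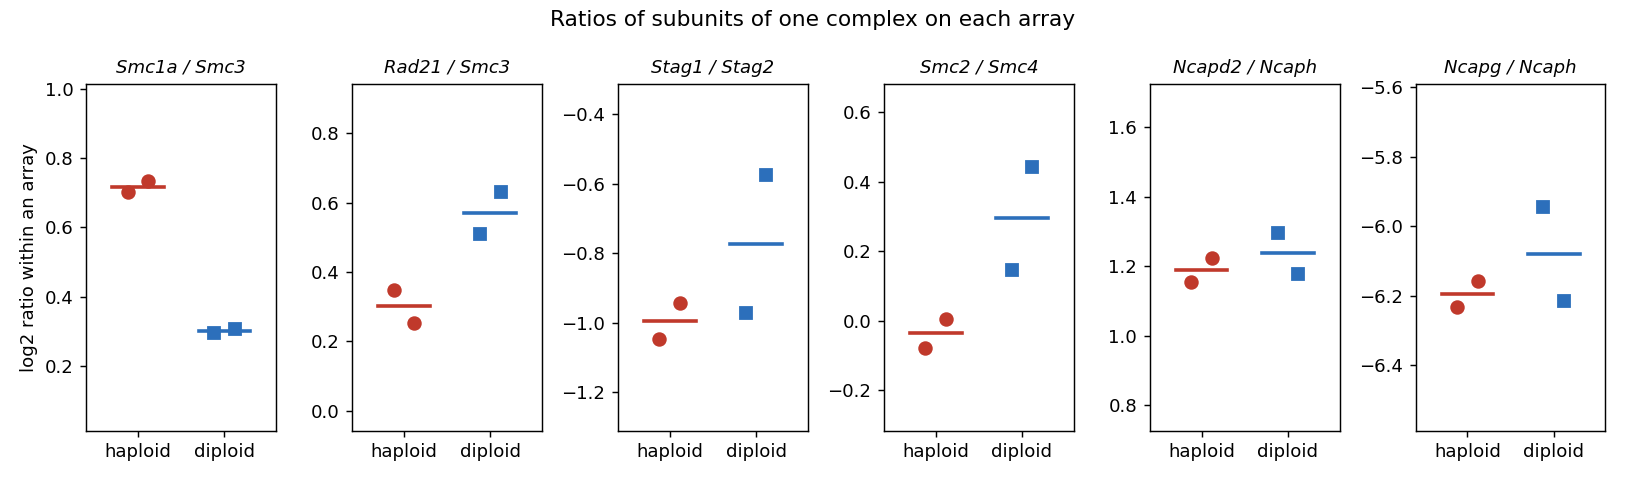
Log2 ratio of subunit pairs within each array, haploid arrays as circles on the left, diploid arrays as squares on the right, group means as lines; every panel spans the same height. The ratio of Smc1a over Smc3 is 0.70 and 0.73 in haploid cells and 0.30 and 0.31 in diploid cells.

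The ratio of Rad21 over Smc3 was lower on both haploid arrays, at 0.35 and 0.25, against 0.51 and 0.63 on the diploid arrays. In condensin, Smc2 over Smc4 was -0.078 and 0.0045 in haploid cells and 0.15 and 0.44 in diploid cells, also without overlap, and the diploid arrays were far apart. The remaining pairs overlapped. Stag1 over Stag2 was -1.05 and -0.94 in haploid cells and -0.97 and -0.57 in diploid cells, Ncapd2 over Ncaph was 1.16 and 1.22 in haploid cells and 1.30 and 1.18 in diploid cells, and Ncapg over Ncaph was -6.23 and -6.16 in haploid cells and -5.94 and -6.21 in diploid cells. Smc1a over Smc3, Rad21 over Smc3, Stag1 over Stag2 and Smc2 over Smc4 kept their sign in all 15 other settings. Ncapd2 over Ncaph kept it in 14 and Ncapg over Ncaph in 12. Several of these settings (a common floor, other probe filters, another prior and the replicate number as a block) left every ratio as it was. Leaving out an array could not turn the pairs without overlap.

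Bright probes were higher in haploid cells over the whole array, and the subunits are mostly bright. In class 9 of 10 classes of mean signal, which holds Smc1a, Smc3, Rad21, Ncapd2 and Ncaph, the median difference of all features was 0.09, and 30.3% of features lay below 0. Smc1a at 0.48 lay above that median and Smc3 at 0.06 near it, while Rad21 (-0.21), Ncapd2 (-0.14) and Ncaph (-0.09) lay below it. Class 8, with Stag2, Smc2 and Smc4, had a median of 0.04, class 7, with Stag1, one of 0.01, and class 3, with Ncapg, one of -0.03. Of the 10 subunits, 8 lay below the median of their brightness class, and Smc1a and Stag2 lay above it.

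**Figure D3:**
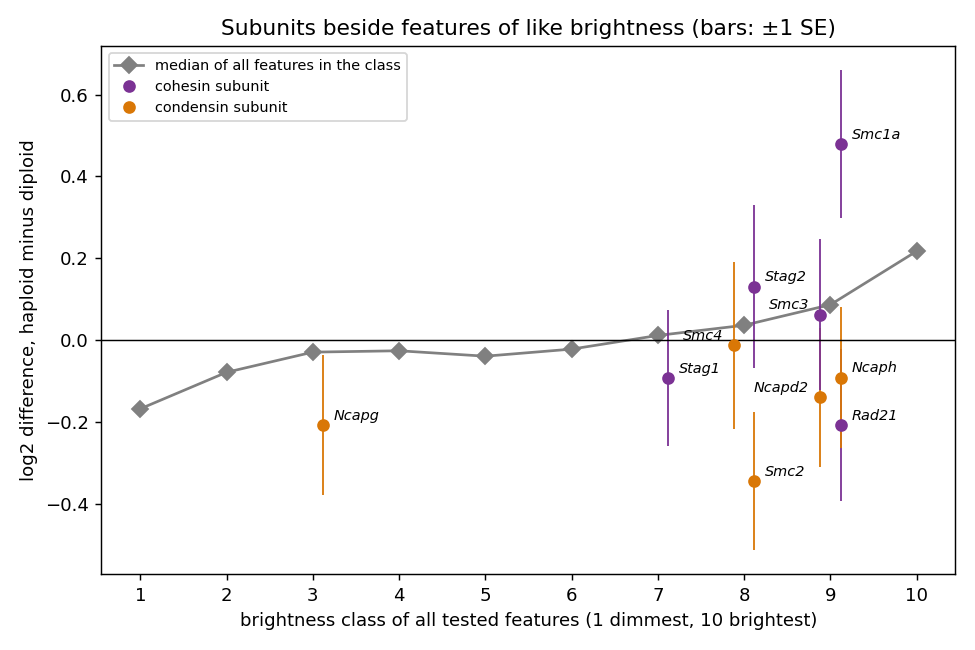
Log2 difference, haploid minus diploid, of each subunit (points, ±1 SE, n = 2 per group) beside the median of all features in 10 classes of mean signal (diamonds, class 10 brightest). Smc1a at 0.48 stands above the class median of 0.09, and Smc2 at -0.34 below the class median of 0.04.

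The regulators that load cohesin onto chromatin, release it or fix it there were examined beside the subunits. None passed the test, with 0 of 9 genes called by limma (0.111% of all features) and 2 at an unadjusted p under 0.05 (11.7% of all features). Of the 9 genes, 7 lay below 0 (46.8% of all features). Their median was -0.37, which stayed below 0 in every other setting. Wapl, which encodes the factor that releases cohesin from chromatin, had log2 signals of 2.12 and 1.71 in haploid cells and 2.58 and 2.52 in diploid cells. The groups were apart, although the haploid arrays were 0.41 from each other. The difference was -0.64 ± 0.20, or 1.56-fold lower (limma unadjusted p = 0.0181, adjusted p = 0.312). Its adjusted p was 0.0418 with a trended and robust prior, the only one of 15 other settings that called it. That setting called 425 of the 17962 features, against 20 as reported. Esco2, for an acetyltransferase that locks cohesin during replication, had 0.70 and 0.36 in haploid cells and 1.05 and 1.10 in diploid cells, a difference of -0.55 ± 0.19 (unadjusted p = 0.0278, adjusted p = 0.354).

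The other genes named from this group had differences closer to 0, with Mau2 and Cdca5 above it. Pds5a and Pds5b, for regulators that bind the kleisin, differed by -0.39 ± 0.18 and -0.37 ± 0.19, although the other probe of Pds5b was at 0.57, with 1 haploid array at -0.19 and the other 3 arrays between -1.72 and -1.49. Nipbl, for the cohesin loader, differed by -0.37 ± 0.22 on a dim probe, and Mau2, for the partner of the loader, by 0.04 ± 0.16. Esco1, for the other acetyltransferase, was at -0.28 ± 0.19, with its other probe at -0.81. Cdca5, which encodes sororin, the antagonist of WAPL, was at 0.02 ± 0.19 with overlapping groups. Adjusted p for these 6 genes lay between 0.453 and 0.979.

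Genes that cut or protect cohesin at mitosis were not called either, with 0 of 5 called by limma (0.111% of all features). Of the 5, 1 had an unadjusted p under 0.05 (11.7% of all features). Below 0 lay 4 of them (46.8% of all features), and the median was -0.15. The shugoshin gene Sgo2a, for a protector of centromeric cohesin, had -0.55 and -0.52 in haploid cells and -0.07 and -0.08 in diploid cells. Arrays of a group were within 0.04 of each other, and the difference was -0.46 ± 0.16 (limma unadjusted p = 0.0296, adjusted p = 0.364). Espl1, which encodes separase, was at -0.34 ± 0.23 with overlapping groups, Pttg1, for its inhibitor securin, at -0.06 ± 0.20, and Sgo1, for the other shugoshin, at 0.06 ± 0.17. Germline cohesin subunits were read on 3 of 4 genes, with none called, 1 at an unadjusted p under 0.05, 1 below 0 and a median of 0.12. Smc1b, the meiotic counterpart of Smc1a, had -0.27 and 0.49 in haploid cells and -0.41 and -0.98 in diploid cells, without overlap. Smc1b differed by 0.81 ± 0.31 (limma unadjusted p = 0.0406, adjusted p = 0.402). Its arrays spread widely, by 0.76 in haploid cells and 0.57 in diploid cells, and with 1 array left out the difference ran from 0.43 to 1.19. Rec8, the meiotic kleisin gene, and Stag3 differed by -0.11 ± 0.21 and 0.12 ± 0.27 with overlapping groups, and Rad21l had no matched probe.

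**Figure D4:**
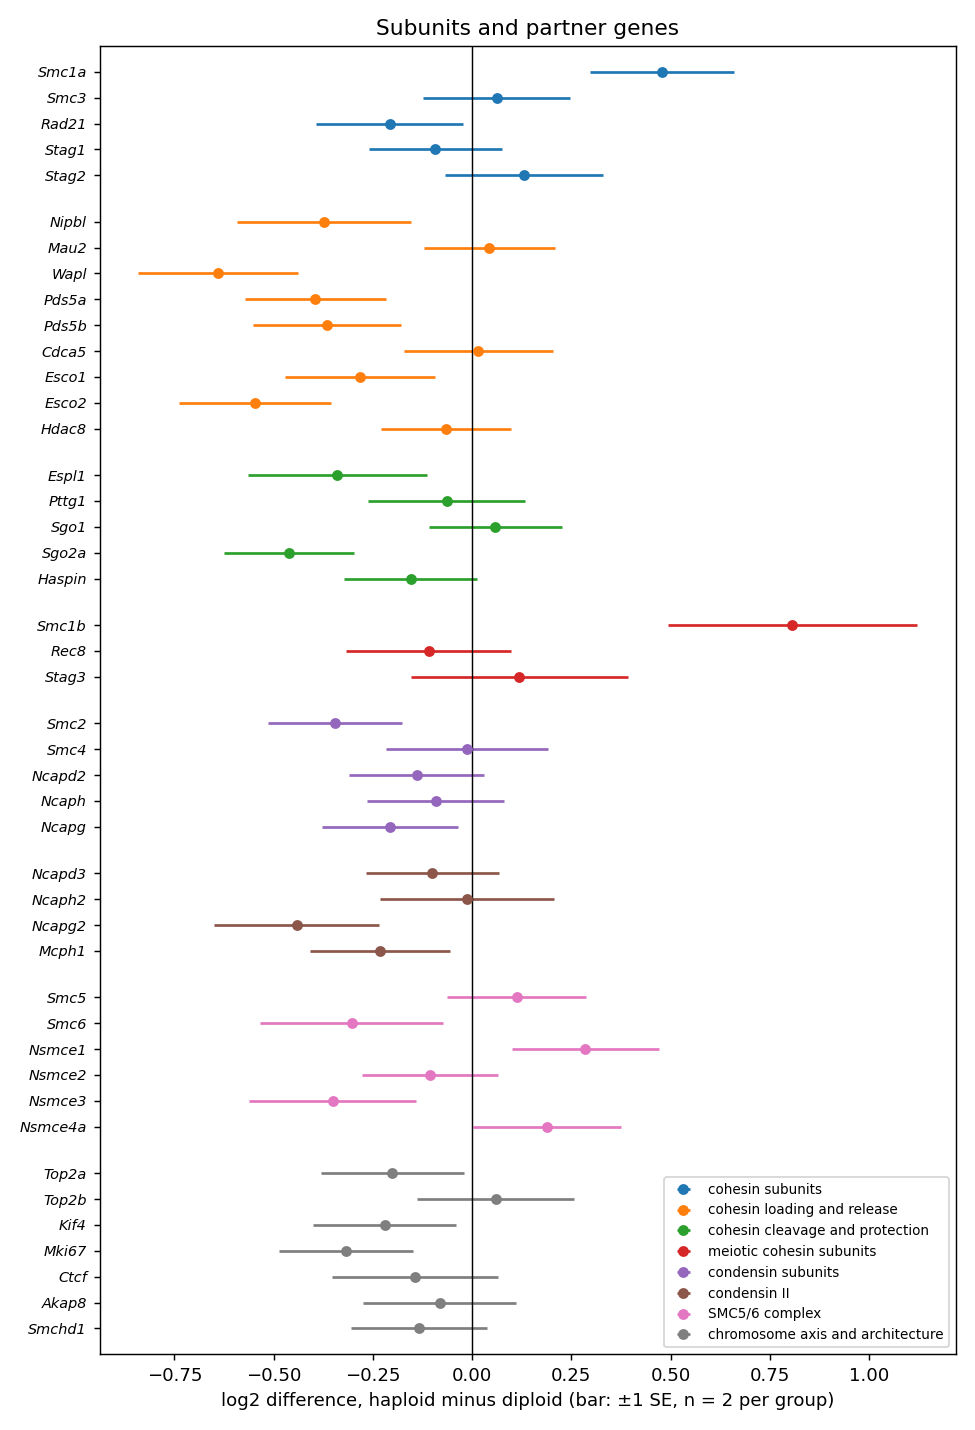
Log2 difference, haploid minus diploid, of the 10 subunits and the tested partner genes by list (points, bars ±1 SE, n = 2 per group). Wapl at -0.64 and Smc1b at 0.81 are the extremes, and no gene shown passed the adjusted test.

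Condensin II and the related SMC5/6 complex gave no called gene. All 4 genes of the condensin II list lay below 0, against 46.8% of all features, and their median was -0.17. The list held 3 subunit genes and Mcph1 (-0.23), which does not encode a subunit. Normexp on all spots put that median at 0.031. Ncapg2, the condensin II counterpart of Ncapg, had 0.13 and -0.31 in haploid cells and 0.41 and 0.30 in diploid cells, a difference of -0.44 ± 0.21 (limma adjusted p = 0.470). Ncapd3 and the kleisin gene Ncaph2 were at -0.10 ± 0.17 and -0.01 ± 0.22. In the SMC5/6 complex, which acts in repair, 3 of 6 tested genes were below 0, with a median of 0.0032, and Eid3 did not pass the filter. Smc6 differed by -0.30 ± 0.23 and Smc5 by 0.11 ± 0.18, although the other probe of Smc5 was at -0.46. Among 7 genes of chromosome architecture, 6 lay below 0, against 46.8% of all features (median -0.14, or 0.061 with normexp on all spots). None of them had an unadjusted p under 0.05 (11.7% of all features). Top2a, the topoisomerase that works with condensin on mitotic chromosomes, was at -0.20 ± 0.18, and Ctcf, for the factor at which loop-extruding cohesin halts, at -0.14 ± 0.21 (adjusted p = 0.670 and 0.799).

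The settings tried moved the subunits by less than their SE, except for normexp on all spots and for Ncapg with normexp fitted on spots of lower local background. Normexp on all spots estimated a background mean of -812 intensity units on diploid replicate 2, against 2.46 to 9.59 on the other arrays. The background SD was 577 on that array, against 0.85 to 1.33 on the others. When spots above the 99th percentile of local background were left out of the fit, that array had a mean of 13.8 and an SD of 1.64. Normexp on all spots shifted the median of all features to -0.10 and put 8 of 10 subunits above 0.

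**Figure D5:**
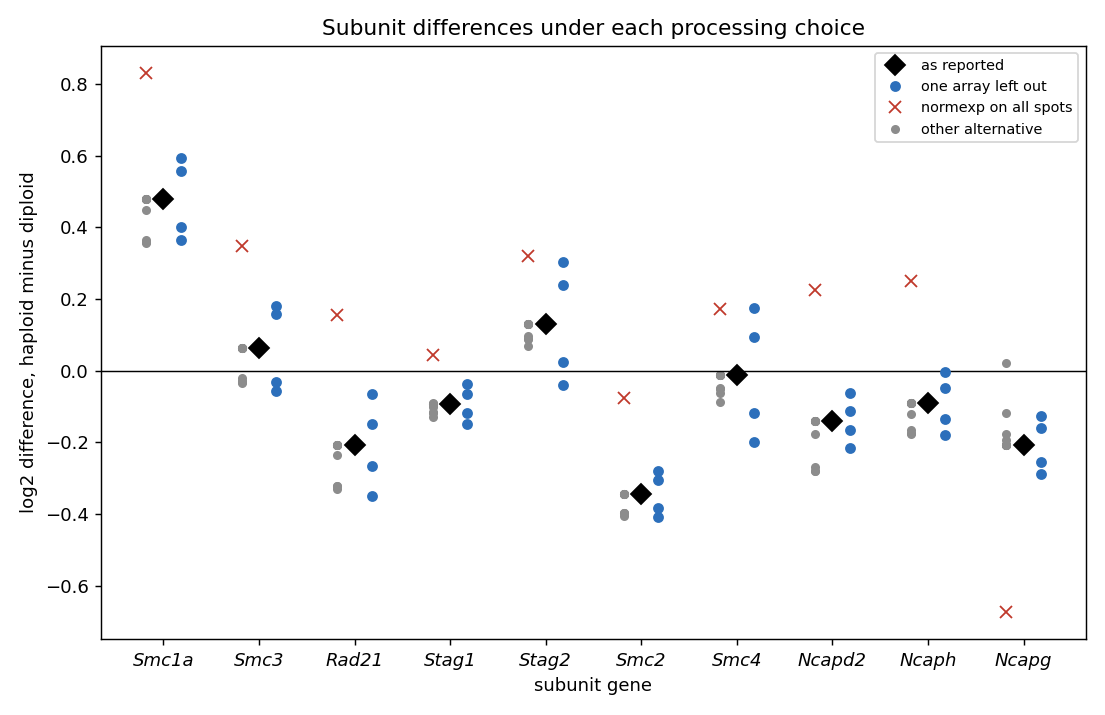
Log2 difference, haploid minus diploid, of each subunit as reported (diamonds), with 1 array left out (circles, right), with normexp on all spots (crosses, left) and under the other alternatives (small circles, left). Smc1a stays above 0, between 0.36 and 0.83, and Smc2 below 0, between -0.41 and -0.075.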

How the data were processed

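The deposited scanner files hold spot intensity on a linear scale, made by the authors with Agilent Feature Extraction 11.0.1.1 per the file headers. A value table that the authors deposited also holds linear intensity, scaled in a way not given in the sources used here. Its column medians were 28.4, 28.3, 28.4 and 28.3, and its ranks followed the scanner values (Spearman correlation across probes of 0.999867 to 0.999944), while its centring is unknown. The authors' other columns, such as the flag of signal well above background, came from the same program per the file headers. Control spots and outlier spots (121 to 168 of 43020 per array) were left out, log2 processed signal was centred on each array's 75th percentile, and spots of a probe were averaged. Probes were named through RefSeq accessions (GRCm38.p6), and no gene coordinate from that assembly is given beside array values, since the array design names mm9. A probe was kept if its signal was well above background on the 2 arrays of at least 1 group, and the brightest probe stood for its gene. Groups were compared in R 4.3.3 with limma 3.58.1 (lmFit, eBayes, two-sided, threshold 0.05), and the fit was tested on simulated data. Subunits and lists were chosen with earlier results of these data known. Named genes were all 10 subunits, preset partner genes and any partner gene that passed, and also Mcph1, Hdac8, Kif4 and Eid3 from the lists. The labels do not say that samples came from separate cultures beyond the line numbers, and the series' design text calls them independent experiments, so p-values reflect only how far these samples lie apart. The number of arrays limits the precision. Normexp used the median spot signal in place of the mean signal that had been planned, a choice made after seeing the files.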

Additional observations from a re-analysis of the deposited data

How the results depend on the processing

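No subunit passed the test in any of the 11 other settings that kept all arrays. Over all features there were 20 calls as reported, against 0 with normexp on all spots, cyclic loess, a common floor or no filter, 2 with the replicate number as a block, 4 with the value table, 7 with quantile normalization, 82 when all arrays had to be well above background, 147 with normexp fitted on spots of lower local background, and 425 with a trended and robust prior. Leaving out 1 array gave 0 to 293 calls (226 without haploid replicate 1, 293 without haploid replicate 2, 0 without either diploid replicate). Each of those 4 fits sets a lone array against 2, takes the spread from the other group alone and assumes that the lone sample varies like it, so their calls say little about stability. None of them called a subunit. The replicate block cannot change a difference here, since each number holds 1 haploid and 1 diploid sample. Deviations of samples of 1 number from their group means correlated at 0.05 over features, so the numbers were not taken as pairs.

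Normexp on all spots moved the list medians to 0.32 (cohesin), 0.17 (condensin), 0.031 (condensin II), 0.29 (SMC5/6) and 0.061 (chromosome architecture), and gave the other sign to Rad21 (0.16), Stag1 (0.045), Smc4 (0.17), Ncapd2 (0.22), Ncaph (0.25), Mau2 (-0.053), Pttg1 (0.33), Ncapd3 (0.17), Ncaph2 (0.29), Top2a (0.061), Ctcf (0.080) and Rec8 (0.22). Fitted on spots of lower local background it turned Smc3 (-0.021), Ncapg (0.023) and Cdca5 (-0.037). Quantile normalization, cyclic loess and the value table turned Smc3 (-0.028, -0.035 and -0.032) and Cdca5 (-0.11 in each), and gave SMC5/6 medians of -0.052, -0.054 and -0.048. Loess also turned Sgo1 (-0.013). The mean of all probes turned Pds5b (0.10) and Smc5 (-0.18), with an SMC5/6 median of -0.19. With 1 array left out, signs changed for Smc3 (-0.057 to 0.18), Stag2 (-0.041 to 0.30), Smc4 (-0.20 to 0.18), Cdca5 (-0.12 to 0.15), Pttg1 (-0.21 to 0.083), Ncaph2 (-0.25 to 0.22), Ctcf (-0.37 to 0.080), Rec8 (-0.27 to 0.056) and Stag3 (-0.27 to 0.50). The cause of these changes was not tested.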
